A study of Mus musculus with 8 samples.

Results

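A list of 40 genes that copy nuclear DNA or supply that process was described across 8 arrays of mouse macrophages. It was drawn up by function, but with earlier results of these data known, so it is not independent of them. Where several probe sets measured a gene, that with the highest mean stood for it. Of the 40 genes, 38 had a probe set that the platform annotation gives to 1 gene, among 12394 genes named in this way. Gins2 and Chaf1a had none and are not analysed here. For 36 of the 38, the brightest array lay above 88.2, the median intensity of the whole data set. Orc1 and Tyms stayed below it.

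The cells were macrophages grown from bone marrow of C57BL/6 mice aged 6 to 8 weeks, cultured for 7 days in 10% serum with M-CSF, a growth factor that drives macrophage progenitors to divide and mature. Wild-type cells and cells of Cd14-/- C57BL/6 mice were examined at 0 h and after 6 h and 24 h with LPS, a component of the bacterial outer membrane, at 1 µg/ml. Its smooth form is named for the wild-type cells. CD14 is the surface protein that passes LPS to its receptor. Wild-type cells were also given LPS together with EGTA, which binds calcium outside the cell, for 6 h and 24 h. The label of the 24 h sample states 2 mM EGTA and that of the 6 h sample no dose. No array held EGTA without LPS, and none held EGTA in CD14-deficient cells. Each of the 8 groups had 1 array, and the labels do not say whether a culture pooled several mice, so a difference between a pair of arrays has no replicate check. According to the design text, the comparisons were meant to separate what depends on calcium entry from what CD14 loss or EGTA does by other routes.

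DNA replication is prepared in G1, when the origin recognition complex, Cdc6 and Cdt1 load the ring-shaped MCM helicase onto origins. In S phase Cdc45 and the GINS complex activate the helicase, primase and polymerase alpha lay down primers, and polymerases epsilon and delta extend them. PCNA, the sliding clamp, holds the polymerases on DNA, RFC loads it, and RPA covers the exposed single strand. Lig1 and Fen1 finish the Okazaki fragments of the lagging strand, ribonucleotide reductase and thymidine kinase supply deoxynucleotides, and chromatin and its DNA methylation are copied behind the fork. Many of these genes are known targets of the E2F transcription factors, which are held back by the retinoblastoma protein in resting cells. Macrophages in M-CSF divide, and LPS is known to stop their growth.

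E2F-type letters occurred often in the promoters of these genes. RefSeq promoter windows (build GRCm38.p6), which run from 250 bases before to 50 after the gene start, were found for 36 of the 40 genes. The letters searched on both strands were TTTGGCGC, TTTCCCGC, TTTGCCGC and TTTCGCGC, which can overlap one another. At least 1 of them was present in 14 of the 36 windows, or 38.9%, against 2.26% of all 32851 windows of that length and 4.07% of the 9888 windows of genes on the array. The following stretches of 100 bases, taken from the part of the window before the gene start, carry the match in capitals, in the direction of the gene. They are shown because the first 5 belong to genes with large decreases after LPS and the last to a gene that stood higher. The Mcm6 stretch lies at chr1:128359706-128359805 on the minus strand, that of Mcm7 at chr5:138172001-138172100 on the minus strand and that of Cdc6 at chr11:98907961-98908060 on the plus strand. The Pola1 stretch lies at chrX:93632246-93632345 on the minus strand, that of Uhrf1 at chr17:56304076-56304175 on the plus strand and that of Rfc3 at chr5:151651209-151651308 on the minus strand.
Mcm6: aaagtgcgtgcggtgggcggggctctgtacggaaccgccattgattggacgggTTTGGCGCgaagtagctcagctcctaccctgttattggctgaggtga
Mcm7: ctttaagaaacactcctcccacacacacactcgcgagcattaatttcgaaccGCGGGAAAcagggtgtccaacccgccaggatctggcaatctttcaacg
Cdc6: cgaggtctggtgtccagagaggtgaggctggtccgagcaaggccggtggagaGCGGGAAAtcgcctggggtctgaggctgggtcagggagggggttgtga
Pola1: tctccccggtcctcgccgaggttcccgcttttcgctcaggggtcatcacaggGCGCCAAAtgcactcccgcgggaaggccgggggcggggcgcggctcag
Uhrf1: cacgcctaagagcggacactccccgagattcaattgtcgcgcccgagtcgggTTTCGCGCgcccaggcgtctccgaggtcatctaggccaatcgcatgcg
Rfc3: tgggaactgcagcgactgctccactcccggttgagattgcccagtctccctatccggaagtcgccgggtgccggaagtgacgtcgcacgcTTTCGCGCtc

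The capitals of Mcm6, Uhrf1 and Rfc3 read on the strand of the gene, and those of Mcm7, Cdc6 and Pola1 on the opposite strand. Their nearest edge stood 40 bases before the start in Mcm6, 158 in Mcm7, 131 in Cdc6 and in Pola1, 178 in Uhrf1 and 3 in Rfc3. Besides the match shown, the Mcm6 window held 2 overlapping matches farther upstream, and those of Mcm7 and Rfc3 held 1 more each downstream of the start. A match to letters is not evidence that a factor binds there.

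The deposited array intensities differed in overall level, with 2% trimmed means of 314 to 527, and were quantile normalized. Values under 38.4 were raised to that floor, so a difference with an array at the floor is a lower bound. Cd14 was at the floor on all 3 arrays labelled CD14-deficient and between 3849 and 12515 on the wild-type arrays. All 10 macrophage markers were above the median on at least 1 array, with a summed intensity of 59499 to 75896. Of 40 marker genes of 8 other cell types, 29 were at the floor on every array. Only Kit, S100a8, Camp and Dcn exceeded the median on any.

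Replication genes stood highest before LPS and lowest after 24 h of it without CD14 or with EGTA. Of the 36 genes above the median, 32 had their highest intensity on the CD14-deficient array at 0 h, against 26.9% of all 7292 genes above the median. The exceptions were Mcm10 and Rfc3, highest in wild type at 6 h of LPS, Orc2, highest in wild type at 0 h, and Fen1, highest in wild type at 24 h. For Fen1 this depended on the probe set, and the other one was highest on the CD14-deficient array at 0 h, at 840. The lowest value, ties at the floor included, was on the CD14-deficient or the EGTA array at 24 h for 28 of the 36, against 27.0% of all genes. In RNA from whole cultures, fewer cycling cells and less of each message per cell cannot be told apart.

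**Figure D1:**
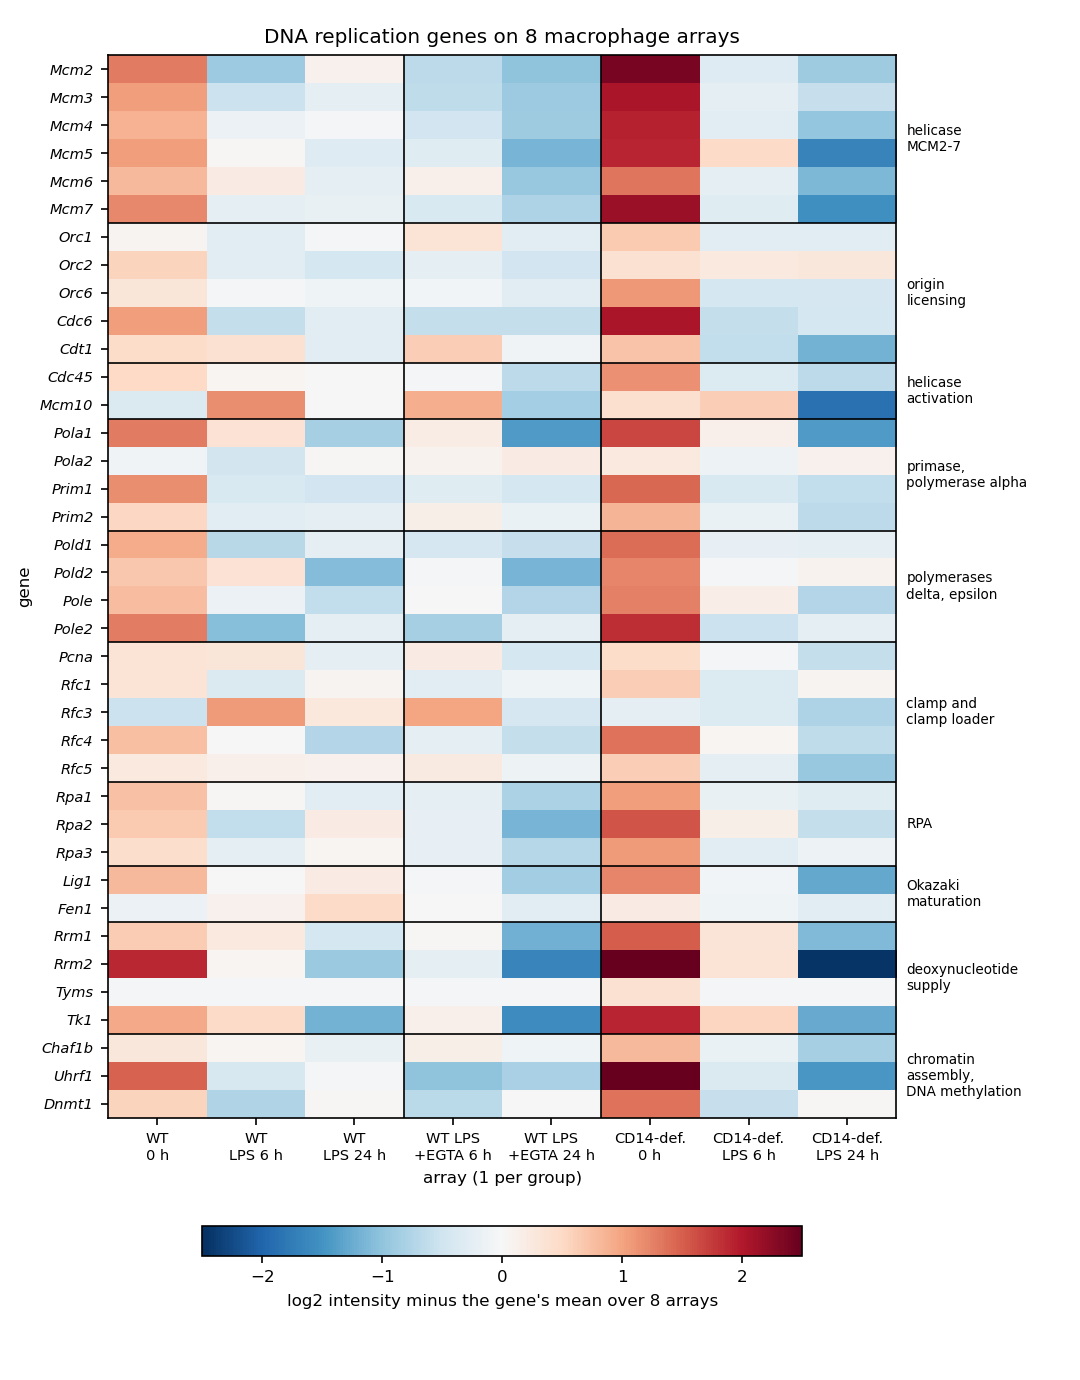
Log2 intensity of the 38 replication genes (rows, grouped by role) on the 8 arrays (columns), each minus the gene's mean over the arrays; colours stop at -2.5 and 2.5. The CD14-deficient 0 h column is red for nearly all genes and holds the highest value of 32 of the 36 genes above the median, while Mcm10 and Rfc3 are reddest at 6 h of LPS in wild type.

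The fall with LPS was tested with limma in a model of all 8 arrays that adds an effect of time and an effect of condition. At 24 h of LPS 26 of 36 genes fell and 0 rose (limma, adjusted p threshold 0.05), where 14.2% of all 7292 genes fell and 12.5% rose. Their median coefficient was -1.5 on the log2 scale, against -0.06 for all genes. At 6 h 18 of 36 fell and 0 rose, where 15.0% of all genes fell and 12.5% rose, with a median of -0.96 against -0.11. The residual of this fit, with 3 degrees of freedom, measures departure from additivity and not the spread between cultures. Without the 2 EGTA arrays 16 genes fell at 24 h, with a median of -1.42, where 6.32% of all genes fell. Leaving out either EGTA array alone is no further check, because the EGTA array that remains is matched exactly by its own condition term. Without the CD14-deficient 0 h array 11 fell at 24 h, where 4.53% of all genes did. At 6 h 6 genes fell without the wild-type 6 h array, 7 without the CD14-deficient 6 h array and 7 without the CD14-deficient 0 h array, where 1 rose. The shares of all genes that fell in those 3 fits were 3.85%, 7.06% and 8.08%. With the intensities as deposited 28 fell at 6 h, with a median of -1.36 against -0.41 for all genes, 17.0% of which fell. That fit used the same variance for all genes (prior degrees of freedom infinite, against 2.93 in the main fit). Its count is therefore not like for like with the 18 of the main fit.

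Kit, the progenitor receptor for stem cell factor, also stood lower on the LPS arrays. Its intensity went from 171 to 84.9 and 38.4 over the wild-type course, from 143 to 66.7 and 38.4 without CD14, and was 64.6 and 38.4 with EGTA. Of the 8 progenitor markers on the array, Cd34, Flt3, Prtn3 and Ctsg were at the floor throughout. Mpo and Elane left it on the EGTA array at 24 h alone, at 43.0 and 42.4. Gata2 was above it on 3 LPS arrays, with 49.6 and 72.4 in wild type at 6 h and 24 h and 65.8 with EGTA at 24 h, and was at the floor on the others. The summed level of the 8 was 440, 365 and 341 in wild type at 0, 6 and 24 h, 411, 335 and 307 without CD14, and 333 and 343 with EGTA. Neutrophil markers were at higher summed levels at 24 h. The summed level of the 6 on the array was 330, 292 and 624 in wild type, 310 and 595 with EGTA, and 283, 428 and 768 without CD14. S100a8, made by neutrophils, gave 138, 99.7 and 432, then 118 and 403, then 90.6, 236 and 507, and Camp reached 107 without CD14 at 24 h. Ltf, Ngp, S100a9 and Cxcr2 were at the floor throughout. The stromal gene Dcn stood at 192 in wild type and 58.2 with EGTA at 24 h and at the floor elsewhere. The part of these cell types in the fall of the replication genes was not tested.

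Counts for pairs of arrays showed the same fall within each genotype. In wild type at 6 h of LPS 12 of the 35 genes compared lay at least 2-fold below 0 h and 2 above, against 9.5% and 10.5% of all compared genes. The replication genes' median difference was -0.78 and that of all genes -0.12. At 24 h 17 of 35 were at least 2-fold lower and 0 higher, against 10.7% and 10.6%, with a median of -1.0 against -0.07. With intensities as deposited, where all genes shifted by -0.66 at 24 h, 29 were lower, and relative to that shift the median was -0.88. The largest wild-type differences at 6 h were those of Pole2, at least 5.04-fold lower, Mcm2, 4.6-fold lower, and Uhrf1, 3.72-fold lower. At 24 h they were those of Rrm2, 7.03-fold lower, and of Pola1 and Tk1, each 4.38-fold lower.

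Without CD14 the counts and the sizes of the decreases from 0 h were larger. At 6 h 27 of the 36 lay at least 2-fold below 0 h and 0 above, against 8.99% and 10.3% of all genes, with a median difference of -1.36 against -0.13. At 24 h 31 of 36 were lower and 0 higher, against 8.77% and 8.29%, with a median of -1.99 against -0.04. Rrm2 was at least 44.7-fold lower at 24 h, Uhrf1 at least 17.0-fold lower and Mcm7 12.9-fold lower. At 6 h Uhrf1 led with a 7.91-fold lower level, followed by Mcm2 at 6.53-fold and Rrm2 at 6.42-fold. Both comparisons are against the CD14-deficient 0 h array, which carried the highest levels.

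**Figure D2:**
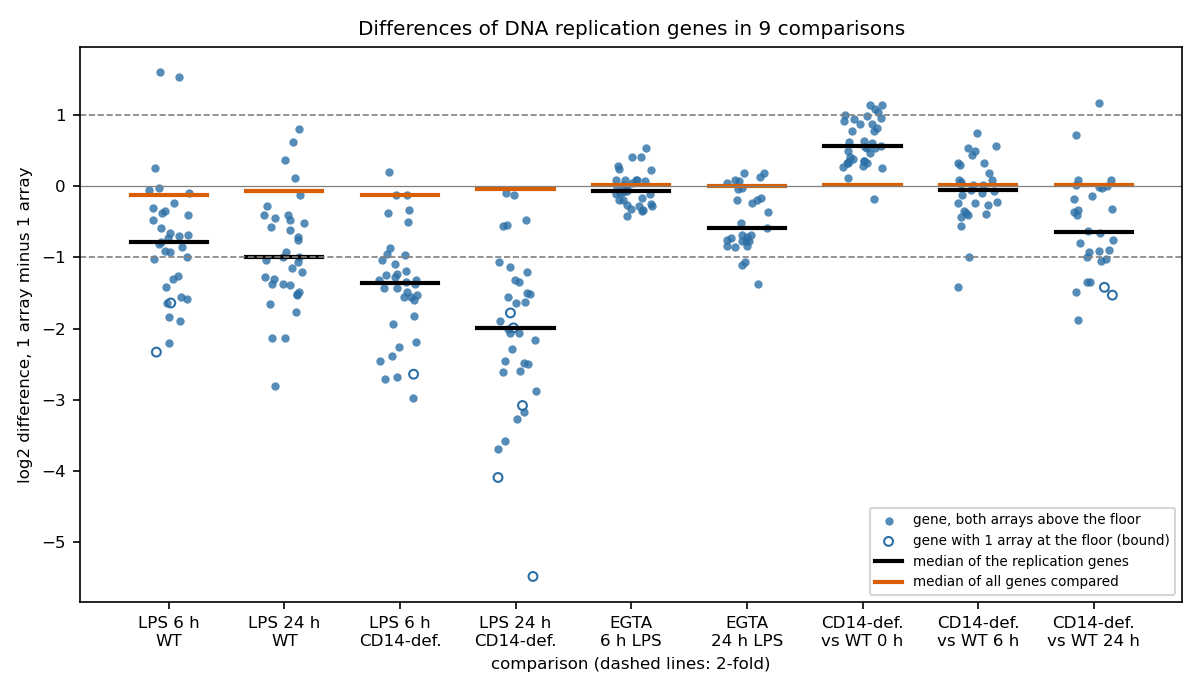
Log2 differences of the compared replication genes (points; open circles are bounds with 1 array at the floor) in 9 comparisons of 1 array with 1 array, with their median (black) and that of all compared genes (orange). The black line lies at -0.78, -1.0, -1.36 and -1.99 in the LPS comparisons and near the orange line for EGTA and CD14 deficiency at 6 h.

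All 6 subunits of the MCM helicase, which unwinds DNA at the fork, fell at 24 h of LPS in the additive fit, and 4 of the 6 fell at 6 h. Mcm2 had an intensity of 433 in wild type at 0 h, 94.0 at 6 h and 188 at 24 h, 111 and 87.8 with EGTA, and 912, 140 and 94.7 without CD14 at 0, 6 and 24 h. The same order of arrays gave 687, 229, 283, 212, 177, 1367, 285 and 223 for Mcm3, and 672, 330, 355, 264, 198, 1379, 301 and 187 for Mcm4. On these probe sets wild type was no lower at 24 h of LPS than at 6 h, while the EGTA and CD14-deficient arrays were lower at 24 h. Other probe sets gave another order: in wild type that of Mcm2 went from 159 at 6 h to 118 at 24 h, that of Mcm4 from 205 to 163 and 1 of Mcm3 from 195 to 182. The other Mcm2 probe set stood at 55.8 and 55.9 with EGTA and at 66.2 and 73.4 without CD14. Mcm5 stood at 488, 244, 189, 194, 106, 892, 331 and 74.7 in that order of arrays. For Mcm6 the values were 2913, 1929, 1423, 1826, 868, 4206, 1432 and 766. Mcm7 gave 1053, 392, 402, 352, 267, 2031, 369 and 158. On the probe sets used, each of the 6 MCM genes had both 0 h arrays above all 6 LPS arrays. The other Mcm6 probe set stood at 858 in wild type at 0 h and 879 at 6 h. The 24 h coefficient was -2.51 (SE 0.47) for Mcm7, with an adjusted p of 0.0158 (limma), and -1.81 (SE 0.33) for Mcm6, with an adjusted p of 0.014.

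Among the licensing genes Cdc6, the loader that brings MCM rings to origins, was the most changed. Its intensity was 119 in wild type at 0 h, at the floor at 6 h and 48.0 at 24 h, at the floor on both EGTA arrays, and 239 without CD14 at 0 h, then at the floor and 42.8. The fall at 6 h was -2.1 (SE 0.28) with an adjusted p of 0.00552 (limma). Cdt1, its partner in loading, stood at 1866, 1789 and 1132 over the wild-type course, 2098 and 1280 with EGTA, and 2232, 893 and 600 without CD14. Cdt1 fell at 24 h (-1.32, SE 0.31, limma adjusted p 0.0279), and at 6 h its level was near that of 0 h in wild type and lower without CD14. Orc6 and Orc2, subunits of the origin recognition complex, did not pass the test at either time. Orc1, the largest subunit of that complex, was too dim to compare, at 48.3 and 72.5 at 0 h and no more than 58.0 on any LPS array.

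Primase and the main polymerases fell at 24 h of LPS, apart from the polymerase alpha subunit Pola2. Pola1, the catalytic subunit of polymerase alpha, had 253, 132 and 57.7 in wild type, 116 and the floor with EGTA, and 324, 111 and the floor without CD14. Prim1, the catalytic primase subunit, stood at 394, 134 and 125 in wild type, 143 and 129 with EGTA, and 475, 135 and 114 without CD14. Its LPS arrays lay within 114 to 143 whatever the condition, and its coefficient of -1.85 (SE 0.15) at 24 h had an adjusted p of 0.00251 (limma). Pola2, in contrast, ranged from 114 to 186 over all 8 arrays and its coefficient at 24 h was -0.05 (SE 0.15). All 4 genes of polymerases delta and epsilon fell at 24 h. Pole2, an accessory subunit of polymerase epsilon, had 194, the floor and 68.2 in wild type, 45.2 and 68.3 with EGTA, and 287, 54.9 and 68.9 without CD14. Pold2, an accessory subunit of polymerase delta, gave 234, 189 and 69.2 in wild type, 142 and 66.3 with EGTA, and 344, 145 and 156 without CD14. Pole2 was thus low by 6 h in all conditions, while Pold2 reached its lowest levels at 24 h in wild type with and without EGTA.

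PCNA and the subunits of its loader differed among themselves. Pcna kept a high level, with 12000, 11732 and 8043 in wild type, 11000 and 7044 with EGTA, and 13064, 9177 and 6269 without CD14. Its 24 h coefficient was small but passed the test (-0.83, SE 0.17, limma adjusted p 0.0198). The size of this fall depended on the scaling. The wild-type difference at 24 h was -0.58 as quantile normalized, -0.73 as deposited and 0.02 with equal medians. Without CD14 it was -1.06, -0.99 and -0.68 in the same order. Rfc4 stood at 318, 191 and 114 in wild type, 161 and 125 with EGTA, and 487, 195 and 122 without CD14, and fell at both times. Of the 5 clamp and loader genes, Pcna and Rfc4 fell at 24 h, and Rfc1 and Rfc4 at 6 h. Rfc5 ranged from 135 to 398 and did not pass at either time.

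Rfc3, another loader subunit, and Mcm10, which helps to activate the helicase, were the only replication genes at least 2-fold higher on an LPS array than at 0 h. Rfc3 had 256, 777 and 445 in wild type at 0, 6 and 24 h, 741 and 278 with EGTA, and 319, 293 and 220 without CD14. Its other probe set, at 158, 599 and 333, then 572 and 261, then 239, 203 and 201, showed the same peak at 6 h in wild type with and without EGTA. No such peak was present without CD14. Mcm10 gave 115, 332 and 148 in wild type, 277 and 81.8 with EGTA, and 195, 225 and 40.3 without CD14. In wild type at 6 h Rfc3 was 3.03-fold higher and Mcm10 2.9-fold higher than at 0 h. Neither passed the additive test, with 6 h coefficients of 0.87 (SE 0.42, limma adjusted p 0.17) and 0.86 (SE 0.54, limma adjusted p 0.272). The other Mcm10 probe set was at or near the floor on all arrays, and with the median over a gene's probe sets Rfc3 alone remained higher.

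**Figure D3:**
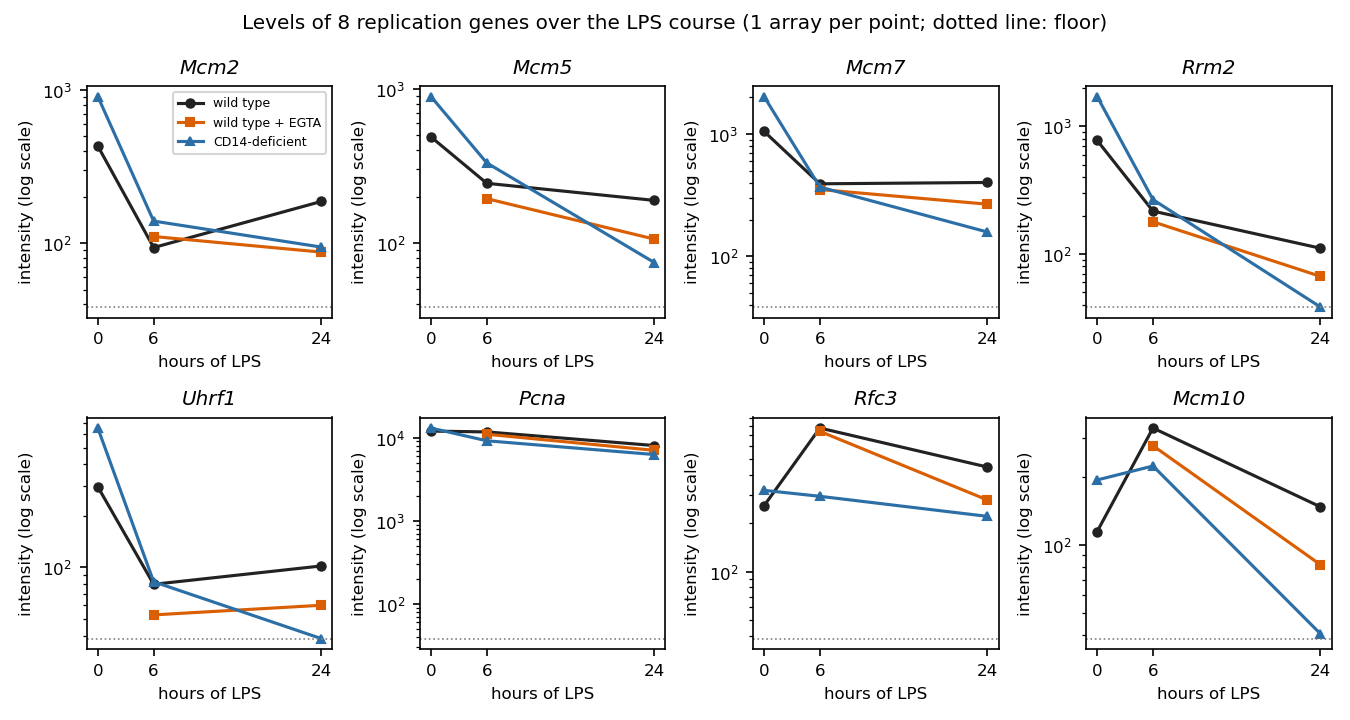
Intensity on a log scale against hours of LPS for 8 replication genes in wild type, wild type with EGTA and CD14-deficient cells, with 1 array per point and the floor of 38.4 as a dotted line. Mcm2, Mcm5, Mcm7, Rrm2 and Uhrf1 start higher without CD14 and end at or below wild type, Pcna varies little, and Rfc3 and Mcm10 peak at 6 h in wild type.

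RPA and the Okazaki fragment enzymes changed less uniformly. Rpa2, the middle subunit of RPA, had 250, 104 and 183 in wild type, 138 and 70.9 with EGTA, and 470, 175 and 105 without CD14. Its other probe set gave 195, 137 and 117 in wild type, 131 and 61.1 with EGTA, and 393, 166 and 83.3 without CD14. The largest subunit, Rpa1, passed the test at both times (-1.23, SE 0.19 at 24 h, limma adjusted p 0.00908), while Rpa2 and Rpa3 passed at neither, with adjusted p of 0.0599 and 0.0516 at 24 h. Lig1, the ligase that seals Okazaki fragments, stood at 386, 220 and 253 in wild type, 214 and 121 with EGTA, and 513, 211 and 90.7 without CD14. It fell at 24 h (-1.61, SE 0.41, limma adjusted p 0.0375). Fen1, the nuclease that trims their flaps, did not pass (0.01, SE 0.27 at 24 h), and its 2 probe sets disagreed. The brighter was at 532 in wild type at 0 h and 637 at 6 h, the other at 572 and 282, so the direction for Fen1 is uncertain.

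Among the deoxynucleotide genes Rrm2, the S-phase subunit of ribonucleotide reductase, had the widest range of the whole list. Its intensity was 777, 217 and 111 in wild type, 179 and 66.8 with EGTA, and 1716, 267 and the floor without CD14. It fell by 4.07 on the log2 scale at 24 h (SE 0.56, limma adjusted p 0.00716). The type of this probe set allows it to bind related sequences too. The other Rrm2 probe sets, with 375 and 380 in wild type at 0 h, 78.5 and 44.3 at 24 h and the floor without CD14 at 24 h, ran the same way. Tk1, the thymidine kinase of dividing cells, stood at 220, 159 and 50.2 in wild type, 124 and the floor with EGTA, and 428, 166 and 47.5 without CD14. Rrm1, the large subunit of the reductase, had 753, 572 and 360, then 496 and 212, then 1378, 603 and 227. For these 3 genes the 24 h level was below the 6 h level in all 3 conditions. Tyms, thymidylate synthase, was at the floor on 7 arrays and could not be compared.

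Of the genes that copy chromatin and DNA methylation, Uhrf1, Dnmt1 and Chaf1b fell at 24 h and the former pair also at 6 h. Uhrf1, which brings the maintenance methyltransferase to new DNA, had 296, 79.7 and 102 in wild type, 52.8 and 60.1 with EGTA, and 653, 82.5 and the floor without CD14. Dnmt1, that methyltransferase, stood at 629, 254 and 439 in wild type, 271 and 434 with EGTA, and 1104, 289 and 441 without CD14. Dnmt1 was lowest at 6 h in all 3 conditions and stood at 434 to 441 on the 24 h arrays, with coefficients of -1.62 (SE 0.21) at 6 h and -0.92 (SE 0.21) at 24 h. Their limma adjusted p were 0.00497 and 0.0267. On the other Dnmt1 probe set the 24 h arrays lay further apart, at 390 in wild type, 304 with EGTA and 299 without CD14.

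Many replication genes were low by 6 h, whereas most mitosis genes were low at 24 h alone. In wild type 9 of 35 replication genes were at least 2-fold lower at both times, 8 at 24 h alone (Mcm5, Mcm6, Pola1, Pold2, Pole, Rfc4, Rrm1 and Tk1) and 3 at 6 h alone (Mcm4, Rpa2 and Dnmt1). The shares of all 7060 genes were 4.66%, 5.86% and 4.73% in that order. These classes are those of the probe sets used and can differ on others. On its other probe set Mcm4 (547, 205 and 163) was 2-fold lower at both times and Rpa2 (195, 137 and 117) at neither. Dnmt1 (537, 182 and 390) was again lower at 6 h alone. Of 23 mitosis and spindle genes 2 were lower at both times, 16 at 24 h alone and 0 at 6 h alone. Without CD14, 27 of 36 replication genes were lower at both times and 4 at 24 h alone (Mcm10, Pcna, Rfc5 and Chaf1b), against 4 and 21 of 25 mitosis genes and 4.26% and 4.38% of all 7024 genes. The mitosis median was -0.31 at 6 h in both genotypes, then -1.55 in wild type and -2.56 without CD14 at 24 h. In the limma fit 2 of 25 mitosis genes fell at 6 h and 23 at 24 h. Times and arrays are shared between the lists, and the difference in timing was not tested.

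**Figure D4:**
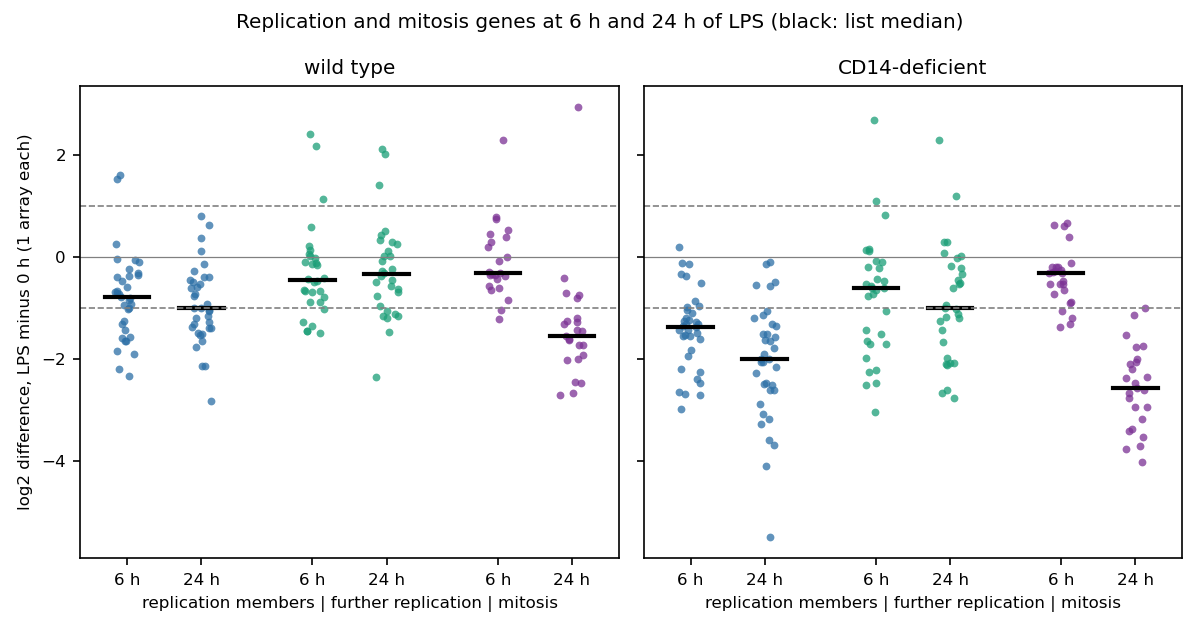
Log2 differences from 0 h at 6 h and 24 h of LPS for the 40-gene replication list, further replication genes and mitosis genes in wild type (left) and CD14-deficient cells (right), with 1 array at each time; black lines are medians and dashed lines 2-fold. Mitosis genes lie near 0 at 6 h, with a median of -0.31 in both panels, and at medians of -1.55 and -2.56 at 24 h.

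Further replication genes outside the list of 40 fell more often than they rose. Of 31 such genes 13 fell and 2 rose at 6 h, where 15.0% of all genes fell and 12.5% rose. At 24 h 11 fell and 2 rose in the limma fit, where 14.2% of all genes fell and 12.5% rose, and the medians were -0.63 and -0.77. Dut, the dUTPase, was 5.08-fold lower in wild type at 24 h of LPS than at 0 h (47.4 against 241). Samhd1, which breaks down deoxynucleotides and is induced by interferon, was 4.03-fold higher (8190 against 2030), and the histone chaperone Asf1a 4.31-fold higher (1166 against 271). Of 27 regulators of the G1 to S transition 12 fell and 2 rose at 6 h, and 8 fell and 2 rose at 24 h, against those same shares of all genes. In the limma fit the share that rose was below that of all genes for both lists, but it rests on 2 genes each time and was not tested. By pairs of arrays, 18.5% and 11.5% of the compared regulators were at least 2-fold higher in wild type at 6 h and 24 h. For all genes these shares were 10.5% and 10.6%. Without CD14 they were 11.1% and 7.41% of the regulators, against 10.3% and 8.29%. Myc, a growth-promoting factor, was at least 11.6-fold lower in wild type at 24 h, and the S-phase cyclin gene Ccne2 3.97-fold lower. Ccnd2, a G1 cyclin gene, was 3.7-fold higher. From the mitosis list the spindle gene Tpx2 stood 7.65-fold higher (1982 against 259) and did not pass the limma test at 24 h (adjusted p 0.33). The checkpoint genes Cdc20 and Bub1 were 6.49-fold and 6.36-fold lower.

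Between 6 h and 24 h the replication genes had smaller median differences than the mitosis genes. In wild type 4 of 32 were at least 2-fold lower at 24 h than at 6 h and 0 higher, against 5.56% and 5.5% of all genes, with a median of -0.07. Tk1 was 3.16-fold lower, Pold2 2.74-fold and Pola1 2.3-fold. Mcm10 was the fourth, at -1.17 on the log2 scale after its peak at 6 h. With EGTA 8 of 31 were lower and 0 higher, against 6.14% and 5.6%, with a median of -0.42, and Mcm10 was 3.39-fold lower. Without CD14 8 of 31 were lower and 0 higher, against 6.16% and 4.32%, with a median of -0.56. There Rrm2 was at least 6.97-fold, Mcm10 5.58-fold and Mcm5 4.43-fold lower. The mitosis genes had medians of -1.38, -1.52 and -2.08 in the same order of conditions.

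EGTA was compared with LPS alone at each time in wild type. At 6 h 0 of 31 compared replication genes differed by 2-fold in either direction, where 0.549% of all genes were higher and 0.267% lower. The differences ran from -0.42 for Pold2 to 0.54 for Pola2, with Prim2 at 0.41, and their median was -0.07. Mcm2 is uncertain here, with 0.24 for the probe set used and -1.51 for the other. With the intensities as deposited 10 were lower, in a comparison where all genes shifted by -0.78, and relative to that shift the median was again -0.07.

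At 24 h EGTA went with lower levels of part of the list. Rpa2 was 2.58-fold lower, Mcm2 2.14-fold and Lig1 2.1-fold, so that 3 of the 29 genes compared lay at least 2-fold below LPS alone and 0 above, against 1.11% and 1.02% of all genes. The median was -0.59, against 0.0 for all genes, and 23 of the 29 were below 0. All 6 MCM genes lay between -1.1 and -0.59, while the 3 compared primase and polymerase alpha genes lay between 0.04 and 0.18. The remaining gene of that role, Pola1, was too dim to compare. It stood at 57.7 with LPS alone and at the floor with EGTA, a difference of -0.59 or lower. As deposited 1 gene was 2-fold lower, and relative to the shift of all genes the median was -0.55. In the additive fit 0 of 36 genes passed for EGTA in either direction (limma), as did 0.0% of all genes. At an unadjusted p under 0.05 there were 1 higher and 0 lower, and the smallest adjusted p was 0.855. The EGTA array at 24 h had the lowest yield of labelled cRNA, 31.4 µg against 52.0 to 76.0 µg for the others, and its part in these differences was not tested.

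Before LPS, CD14-deficient cells had higher levels of nearly all replication genes. Of 36 compared genes 35 were above 0, with a median of 0.56 against 0.02 for all genes. Rrm2 was 2.21-fold higher, Uhrf1 2.2-fold, Mcm2 2.11-fold, Mcm4 2.05-fold and Cdc6 2.0-fold, which makes 5 at least 2-fold higher and 0 lower, against 1.4% and 3.2% of all genes. Several others lay just under 2-fold, among them Mcm3 at 0.99, Tk1 at 0.96 and Mcm7 at 0.95. The count therefore changed to 0 with arrays set to equal medians and to 2 as deposited, while the median relative to all genes was 0.56 and 0.57. Only Orc2 was lower, at -0.18. The 25 mitosis genes were also all above 0, with a median of 0.7.

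During LPS the order of the genotypes changed. At 6 h the median difference between CD14-deficient and wild-type cells was -0.06, and 2 of 31 lay at least 2-fold below wild type and 0 above, against 3.08% and 2.53% of all genes. These were Rfc3, 2.65-fold lower, and Cdt1, 2.0-fold lower, while Rpa2 stood 1.68-fold higher. Mcm2 is uncertain at this time too, with 0.57 for the probe set used and -1.26 for the other. At 24 h 8 of 30 were lower and 1 higher, against 6.21% and 5.21%, with a median of -0.65. Mcm10 was 3.68-fold lower, Rrm2 at least 2.88-fold and Lig1 2.79-fold, and Pold2 was 2.25-fold higher. The count of lower genes was 1 as deposited, where all genes shifted by 0.43 and the count of higher genes was 2, and 5 with the median over probe sets. Relative to the shift the deposited median was -0.57.

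The change with LPS was more negative without CD14 for most of the list. At 6 h 33 of 36 genes had the more negative response, 9 of them by at least 2-fold, where 4.48% of all genes did so, and the median of the difference between responses was -0.65. At 24 h the figures were 34 of 36, 21 by at least 2-fold against 6.55% of all genes, and a median of -1.13. The mitosis genes had a median of -1.08 at 24 h, with 25 of 25 more negative. Both responses of a genotype start from its 0 h array, so the higher 0 h levels without CD14 enter each of these differences. With 1 array per group the difference between responses was not tested. In the additive fit, which averages CD14 deficiency over the 3 times, 0 of 36 genes passed in either direction (limma), where 0.384% of all genes were lower and 0.0686% higher. At an unadjusted p under 0.05 there were also 0 higher and 0 lower, and the smallest adjusted p was 0.266. Such a fit has no term for a difference that is positive at 0 h and negative at 24 h.

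Replication genes with E2F-type letters in the promoter window had lower medians in the LPS comparisons than those without. In wild type at 6 h 7 of 13 compared genes with a match and 4 of 19 without were at least 2-fold lower, with medians of -1.31 and -0.47. At 24 h these were 9 of 13 and 7 of 19, with medians of -1.28 and -0.58. Without CD14 at 6 h they were 12 of 13 and 12 of 20, with medians of -1.6 and -1.24, and at 24 h 12 of 13 and 16 of 20, with medians of -2.48 and -1.6. Of all compared genes, 9.5% and 10.7% were at least 2-fold lower in wild type at 6 h and 24 h. Without CD14 these shares were 8.99% and 8.77%. The LPS response of genes outside the list that hold these letters was not examined. Rfc3, whose promoter stretch is shown above, has a match and stood higher at 6 h, so letters and direction did not go together in every gene. Mitosis genes held E2F-type letters in 1 of 26 windows and TTTGAA, the letters of the cell cycle homology region, in 19 of 26, against 5 of 36 replication genes and 15.4% of the windows of genes on the array. CCAAT was present in 24 of 36 replication and 21 of 26 mitosis windows, against 42.3%, and GGGCGG in 27 of 36 replication and 22 of 26 mitosis windows, against 61.0%. None of these shares was tested.

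Where a replication gene differed by at least 2-fold on the probe set used and had further probe sets with an array above the median, these moved in the same direction in 85 of 85 cases over the 9 comparisons. This count leaves out the conflicts of Fen1 and Mcm2 named above, because their used probe sets were within 2-fold there. None of the 108 differences of at least 2-fold changed sign with the intensities as deposited or with equal medians. This was nearly fixed in advance, since the largest shift of all genes, -0.78 for EGTA at 6 h as deposited, is itself under 2-fold. The counts at 2-fold did move with the scaling. The choice of probe set matters, among others, for the direction of Fen1 and for Mcm2 in the comparisons named above. It also matters for Mcm6 at 6 h in wild type and for the count that includes Mcm10. The order of 6 h and 24 h in wild type depends on it in genes such as Mcm2, Mcm3, Mcm4, Rpa2 and Prim2.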

How the data were processed

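The 8 arrays were hybridised with labelled cRNA of total RNA with integrity numbers of 9.3 to 9.7. Per the submitters' processing notes the authors used MAS5, of unstated version, for the deposited intensities. Any scaling to a common target and any detection calls are not given in the sources used here. The deposited values are linear intensities for 22690 probe sets. These were quantile normalized, raised to a floor at the 40th percentile (38.4) and put on the log2 scale. The number of arrays limits the precision.

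Of the probe sets, 20393 had 1 gene (20364 matched by gene identifier to RefSeq), 691 had several and 1606 were unnamed; 4958 genes had several, and the one with the highest mean was used. A gene was compared where its brighter array exceeded 88.2. Differences of 2-fold between 1 array and 1 array were counted with no p-value in 12 comparisons, 3 of them of 24 h with 6 h. The limma 3.58.1 fit (R 4.3.3) used time and condition on 8 arrays, with Benjamini-Hochberg adjustment over 7292 genes. It was also run on simulated data for 24 h of LPS, with independent noise around a flat mean for each gene. Of 100 genes simulated at 1.5 on the log2 scale 75% were recovered, and of 100 at -3 97%, with 9 false calls. Such data hold no condition effect and no spread between cultures, so these figures do not give the error rate on the real arrays.

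Genes given with all values were the 2 of each role with the widest range (1 where the role has 2 or 3 genes), the MCM genes and Pcna, with the 3 largest differences of each comparison or further list; others, such as those completing a count of 5 or fewer, were chosen after their values were seen. The members and lists were chosen with earlier results of these data known. Alternatives were the deposited scale, equal medians, a floor at the 25th percentile, the median over probe sets, no brightness filter, an intensity trend in eBayes, leaving out the EGTA arrays and, added after seeing the data, leaving out each array. Protein sequences were not used here.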

Additional observations from a re-analysis of the deposited data

Results flagged for a closer look

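For 2 replication genes the LPS response had opposite signs in the 2 genotypes, reached 2-fold in at least 1 of them and differed by at least 2-fold between them at that time. Rfc3 stood higher after 6 h of LPS in wild type (1.6 on the log2 scale) and slightly lower without CD14 (-0.12), a difference of -1.72. Mcm10 stood slightly higher after 24 h in wild type (0.37) and lower without CD14 (-2.28), a difference of -2.65. Each response rests on 1 array against 1 array, and neither difference was tested. Signs were also opposite, with no response of 2-fold, for Rfc3 at 24 h (0.8 and -0.54) and Pola2 at 24 h (0.11 and -0.13). On the probe set used, the same held for Fen1 at 6 h (0.26 and -0.33) and 24 h (0.62 and -0.48). The other Fen1 probe set was lower after LPS in both genotypes. It stood at 572, 282 and 366 in wild type and 840, 295 and 240 without CD14 at 0, 6 and 24 h.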

How the results depend on the processing

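Of 62 counts above 0 that were recomputed under an alternative other than leaving out 1 array, 52 stayed within 1.5 times and 10 moved. Of 74 counts of 0, 73 stayed 0 and 1 moved. With the intensities as deposited, where all genes shift together, the count of 2-fold lower replication genes was 29 in place of 17 for wild type at 24 h of LPS, 10 in place of 0 for EGTA at 6 h and 1 in place of 3 for EGTA at 24 h. For CD14-deficient against wild type the deposited scale gave 2 higher genes in place of 5 at 0 h, and 1 lower in place of 8 and 2 higher in place of 1 at 24 h. It gave 28 genes falling at 6 h of LPS in the limma fit, in place of 18. These counts are not like for like, because the fit on the deposited scale used the same variance for all genes. With equal medians the count of higher genes at 0 h was 0. With the median over probe sets, 5 genes were lower without CD14 at 24 h and 1 was higher in wild type at 6 h. Without the 2 EGTA arrays 16 genes fell at 24 h in the limma fit, in place of 26. Leaving out each array in turn from the limma fit, chosen after seeing the data, gave 6 to 24 genes falling and 0 to 1 rising at 6 h of LPS, and 11 to 27 falling and 0 rising at 24 h. For CD14 deficiency and for EGTA the counts were 0 in both directions in all 8 of these fits. Not all 8 of these fits are separate checks. By design, those without an EGTA array share the same time terms, and those without a 0 h array share the same condition terms. No paired analysis was possible because the labels give no replicate numbers and each group has 1 array. Levels near the floor limit what can be said of Cdc6, Orc1, Tyms and Pole.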
